A study of Mus musculus with 4 samples.

Results

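In mouse granulosa cells, 294 chromatin loops that touched the end of a protein-coding gene were called in both libraries taken before an ovulatory stimulus and in neither library taken after it. They are called PMSG-only loops here. The 2 hCG libraries came from 21-day-old mice primed with equine chorionic gonadotropin (eCG or PMSG, 5 IU) and then given human chorionic gonadotropin (hCG, 5 IU), with collection 6 h after hCG. The 2 PMSG libraries came from mice of the same age that had received the same eCG dose, and are labelled 0 h after hCG. All 4 libraries therefore carry the eCG priming. Contacts were measured by Micro-C, which cuts chromatin with micrococcal nuclease and joins ends that lie close together, and each library has 1 deposited list of called loops. The hCG lists held 7664 and 7935 loops, with 311016 and 349717 contacts summed over them. The PMSG lists held 8305 and 6533 loops, with 393852 and 272470 contacts. The labels do not say whether the libraries of a group came from separate mice.

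The 294 loops were selected on the calls themselves. Loops of the 4 lists were pooled, loops whose anchor midpoints both lay within 20 kb were linked, and each connected set was taken as 1 distinct loop. A set was kept if it held a call from both PMSG lists and none from the hCG lists, and if a gene end lay within 2.5 kb of an anchor of any of its calls. Of 12920 distinct loops, 491 were PMSG-only, and 294 of these (59.9%) lay at a gene end. They make up 3.51% of the 8368 distinct loops at gene ends. The choice used the contrast between hCG and PMSG, so no test is given on it, and nothing is read from that share. The converse set, called in both hCG libraries and in no PMSG library, held 435 loops at gene ends of 652 in all (66.7%). Loops found in all 4 lists numbered 3859, of which 2459 (63.7%) lay at gene ends. The lists hold values only for called loops. No contact count exists for a PMSG-only loop in the hCG libraries, and the absence of a call does not show the absence of contacts.

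A chromatin loop is seen as a pair of sites that touch more often than the sites around them do. Many loops of mammalian genomes are held by cohesin, which extrudes chromatin until it meets bound CTCF, and others join promoters to enhancers. Granulosa cells surround the oocyte and make estradiol from theca-derived androgens while follicles grow under follicle-stimulating activity such as that of eCG. The surge of luteinizing hormone, which hCG replaces, turns them toward progesterone synthesis, expansion of the cumulus and ovulation. Loop lists carry no expression, so the cell type could not be checked from transcript markers. Genes of growing follicles had ends at loops of all 4 lists in 11 of 19 cases (57.9%), near the share of all genes at loops, and genes of theca, stroma and oocytes did so too (6 of 8 and 4 of 6), so the loops do not identify the cells.

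The 499 genes with an end at a PMSG-only loop were matched to a RefSeq promoter table (GRCm38.p6, the assembly of mm10), which gave a strand for 393 of them. The promoters printed here are the ones that lay at an anchor of the strongest loops, with the 250 bases before the annotated start, read 5′ to 3′ on the strand of the gene. Capitals mark an AP-1 site (TGANTCA) or a TATA box (TATAAA) where a search of both strands found one. They lie at chr8:66697172-66697421 (Npy1r, plus strand), chr8:66688095-66688344 (Npy5r, minus), chr13:105443443-105443692 (Htr1a, plus), chr1:77515089-77515338 (Epha4, minus), chr11:7213924-7214173 (Igfbp3, minus) and chr7:108934165-108934414 (Eif3f, plus).
Npy1r: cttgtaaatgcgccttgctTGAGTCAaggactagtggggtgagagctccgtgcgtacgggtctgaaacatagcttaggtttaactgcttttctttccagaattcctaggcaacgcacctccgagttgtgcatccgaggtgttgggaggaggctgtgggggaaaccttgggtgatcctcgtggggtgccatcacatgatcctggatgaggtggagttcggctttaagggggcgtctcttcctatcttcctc
Npy5r: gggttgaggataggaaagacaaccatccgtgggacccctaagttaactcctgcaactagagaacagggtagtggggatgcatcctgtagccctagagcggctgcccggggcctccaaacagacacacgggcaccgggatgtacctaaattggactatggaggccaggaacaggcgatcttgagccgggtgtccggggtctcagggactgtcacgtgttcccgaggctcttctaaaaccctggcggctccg
Htr1a: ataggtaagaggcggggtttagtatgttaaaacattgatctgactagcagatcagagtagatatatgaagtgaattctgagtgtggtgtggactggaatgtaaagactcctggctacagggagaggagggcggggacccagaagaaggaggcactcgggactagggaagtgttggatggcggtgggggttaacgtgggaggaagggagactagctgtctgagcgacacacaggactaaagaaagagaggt
Epha4: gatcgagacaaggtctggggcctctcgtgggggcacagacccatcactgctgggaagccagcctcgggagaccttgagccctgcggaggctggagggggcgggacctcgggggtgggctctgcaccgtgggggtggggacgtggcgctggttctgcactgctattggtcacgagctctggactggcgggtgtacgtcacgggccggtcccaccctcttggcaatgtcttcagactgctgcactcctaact
Igfbp3: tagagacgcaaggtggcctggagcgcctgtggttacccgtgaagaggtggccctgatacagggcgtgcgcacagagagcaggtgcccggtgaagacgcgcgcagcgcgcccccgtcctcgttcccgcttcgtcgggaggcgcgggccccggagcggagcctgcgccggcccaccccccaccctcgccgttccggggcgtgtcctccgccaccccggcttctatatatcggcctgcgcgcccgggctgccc
Eif3f: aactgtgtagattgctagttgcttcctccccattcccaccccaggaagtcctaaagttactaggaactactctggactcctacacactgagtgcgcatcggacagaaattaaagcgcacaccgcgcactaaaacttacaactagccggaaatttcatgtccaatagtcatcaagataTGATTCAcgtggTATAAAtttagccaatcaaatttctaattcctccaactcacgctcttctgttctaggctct

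Promoters at PMSG-only loops were of mixed base composition. Over the 272 annotated starts of 237 genes that lay at their anchors, the 300-base windows (250 bases before the start and 50 after it) had a median GC content of 58.2% and a median CpG ratio, observed over expected, of 0.648. Starts at hCG-only loops (544) had medians of 61.3% and 0.759, starts at loops of all 4 lists (2134) had 59.0% and 0.693, and all 21045 starts of the table had 56.7% and 0.574. A CpG ratio above 0.6 was found in 54.0% of the starts at PMSG-only loops, 68.4% of those at hCG-only loops, 58.9% of those at loops of all 4 lists and 48.1% of all starts. The AP-1 site was in 6.62% of the windows at PMSG-only loops and 7.04% of all windows, the TATA box in 14.3% and 12.7%, the SF-1 site (CAAGGTCA) in 1.10% and 1.29%, the cyclic AMP response element (CRE, TGACGTCA) in 3.68% and 2.26%, and the core of the CTCF motif in 2.57% and 2.37%. The CRE was in 4.23% of the windows at hCG-only loops and 3.09% of those at loops of all 4 lists, and the TATA box in 10.7% and 9.79%. The windows of the 6 printed promoters range from the GC-rich start of Igfbp3 (73.2% GC) to that of Eif3f (43.6% GC), where the AP-1 site and the TATA box lie 73 and 61 bases before the start. These matches describe letters in the windows and no bound factor, and the anchors outside promoters were not searched.

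Several of the strongest PMSG-only loops joined genes for receptors and growth factor proteins to distant sites at which no gene end lay. Strength is the number of observed contacts over the number expected from the surrounding donut of the contact map, and the order follows the smaller ratio of the 2 PMSG libraries. Gdap1, a gene of mitochondrial fission, came first, with 14 and 16 contacts in the PMSG libraries against 1.30 and 1.75 expected, over 940 kb (chr1:17160001-17170000 with chr1:18100001-18110000). Npy1r and Npy5r, neighbouring genes for G protein-coupled receptors of neuropeptide Y, shared the anchor of a 710 kb loop (chr8:66690001-66700000 with chr8:67400001-67410000). It had 23 and 27 contacts against 2.81 and 3.30 expected, so that both libraries gave nearly the same ratio, 8.19 and 8.17. Htr1a encodes a serotonin receptor, and its loop of 1470 kb (chr13:105440001-105450000 with chr13:106910001-106920000) had 20 and 16 contacts against 2.52 and 1.82 expected. Epha4, a receptor tyrosine kinase for ephrins, had 16 and 18 contacts against 1.36 and 2.70 expected over 1595 kb (chr1:75920001-75925000 with chr1:77515001-77520000). Its ratio was 11.7 in a 5 kb bin of replicate 1 and 6.66 in a 10 kb bin of replicate 2. Igfbp3, which binds insulin-like growth factors in body fluids, had 26 and 20 contacts against 4.26 and 3.05 expected over 1030 kb.

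**Figure D1:**
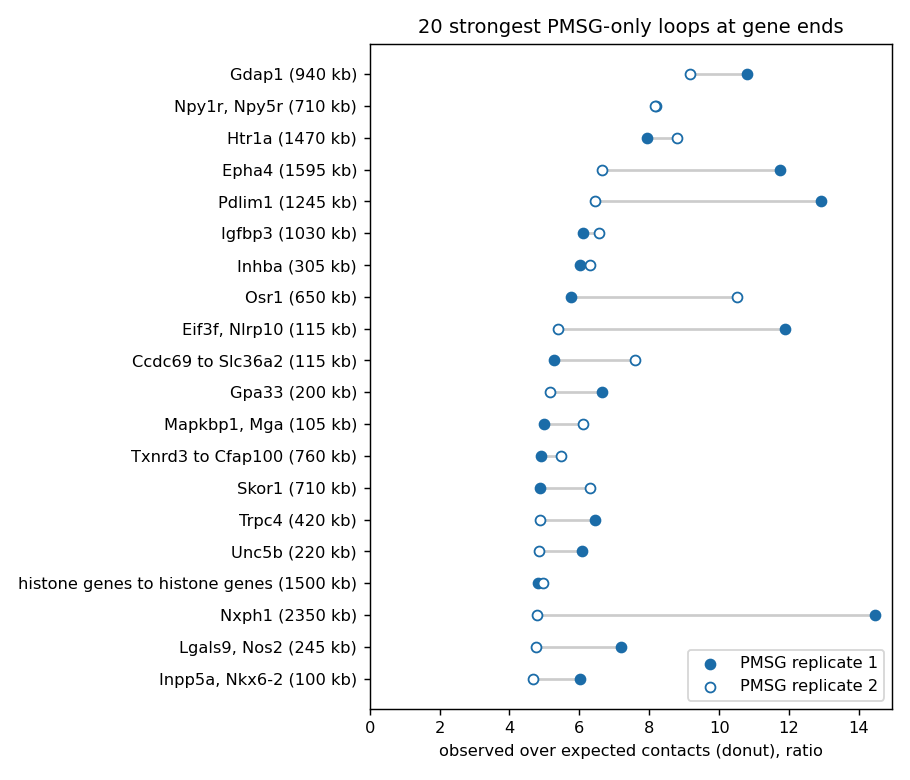
Observed over expected contacts (x axis, ratio) of the 20 PMSG-only loops at gene ends with the highest smaller ratio, 1 row per loop named by its genes and span. Filled points are PMSG replicate 1 and open points are PMSG replicate 2. The libraries lie close together for Npy1r with Npy5r (8.19 and 8.17) and far apart for Nxph1 (14.5 and 4.77).

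Below the first 10 came Gpa33. It is a surface glycoprotein gene known from intestinal epithelium, and had 21 and 32 contacts against 3.16 and 6.19 expected over 200 kb (chr1:166160001-166165000 with chr1:166360001-166365000). Mga, a transcription factor that pairs with Max, and its neighbour Mapkbp1 had 25 and 15 contacts against 5.01 and 2.45 expected over 105 kb. Skor1, a transcriptional corepressor gene, had 27 and 15 contacts against 5.53 and 2.38 expected over 710 kb. Trpc4 encodes a cation channel, and its start met a site 420 kb away, where 25 and 21 contacts stood against 3.88 and 4.31. The netrin receptor gene Unc5b had 20 and 28 contacts against 3.29 and 5.79 expected over 220 kb. Lgals9, a galectin gene, and Nos2, the inducible nitric oxide synthase, shared an anchor whose partner lay 245 kb away, with 32 and 28 contacts where 4.45 and 5.88 were expected. Nkx6-2, a homeobox gene, and Inpp5a, an inositol phosphatase gene, had 26 and 32 contacts against 4.33 and 6.83 expected over 100 kb, and no hCG call lay at either anchor. Nxph1, which encodes a ligand of neurexins, had the longest of the 294 loops, at 2350 kb (chr6:8930001-8940000 with chr6:11280001-11290000). Its 15 contacts in a 10 kb bin of replicate 1 stood against 1.04 expected, and its 30 contacts in a 25 kb bin of replicate 2 against 6.28.

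As a set, the PMSG-only loops had lower ratios than the loops shared by all libraries. The median ratio over the 294 loops was 3.11 in PMSG replicate 1 (range 1.82 to 14.5) and 3.21 in PMSG replicate 2 (range 1.89 to 13.2). The loops of all 4 lists at gene ends had medians of 5.16 and 5.07 in the hCG libraries and of 4.64 and 4.74 in the PMSG libraries. The hCG-only loops at gene ends, measured in the hCG libraries, were at 2.97 and 2.92. Observed contacts per PMSG-only loop had a median of 43 (14 to 214) in replicate 1 and 40 (11 to 197) in replicate 2. The ratio was higher in replicate 1 for 121 loops and in replicate 2 for 173. The classes also differed in bin size. The finest call of any library was in 25 kb bins for 91 of the 294 PMSG-only loops (31.0%) and 30.3% of the hCG-only loops. This held for 2.40% of the loops of all 4 lists. In at least 1 PMSG library the finest call was in 25 kb bins for 184 of the 294 loops, and in neither for 110. Both PMSG libraries called the same bin size for 164 of the 294. The part of bin size in the lower ratios was not tested.

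PMSG-only loops at gene ends spanned longer distances than hCG-only loops. They exceeded the loops of all 4 lists with bin sizes pooled, but not within 5 or 10 kb bins. Their median span was 225 kb (quartiles 120 and 375 kb, range 35 to 2350 kb). It was 100 kb for hCG-only loops (60 and 200 kb) and 150 kb for loops of all 4 lists (90 and 280 kb). Only 29 of the PMSG-only loops (9.86%) spanned 60 kb or less, against 121 (27.8%) of the hCG-only loops and 280 (11.4%) of the loops of all 4 lists. Over 1000 kb reached 14 PMSG-only loops (4.76%), 14 hCG-only loops (3.22%) and 48 loops of all 4 lists (1.95%). Within a bin size, the PMSG-only median was above the hCG-only median each time, at 102.5 against 57.5 kb for 5 kb bins, 210 against 100 kb for 10 kb bins and 325 against 200 kb for 25 kb bins. Against the loops of all 4 lists the order depended on the bin size, since those had medians of 130, 230 and 250 kb. Loops were compared here without a test, because the classes are the selection itself.

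**Figure D2:**
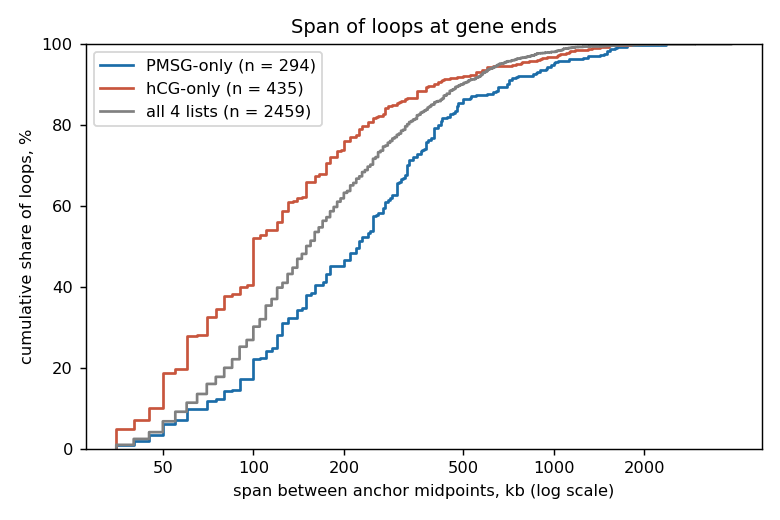
Cumulative share of loops (y axis, %) by the distance between anchor midpoints (x axis, kb, log scale) for PMSG-only (n = 294), hCG-only (n = 435) and shared (n = 2459) loops at gene ends. With all bin sizes pooled, the PMSG-only curve has its median farthest right, at 225 kb against 100 and 150 kb.

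After Nxph1, the longest loop was that of Tfap2a, a transcription factor of neural crest, at 1750 kb with 42 and 31 contacts against 13.9 and 8.64 expected, both in 25 kb bins. The proto-oncogene Myc had a loop of 1625 kb on chromosome 15 (chr15:61975001-62000000 with chr15:63600001-63625000), with 60 and 47 contacts where 25.2 and 18 were expected. Epha4 followed, and then Mmadhc, a gene of vitamin B12 metabolism, at 1530 kb with 18 and 53 contacts against 2.61 and 12.1 expected. At the other end, Col1a1, the main chain of type I collagen, was joined to the neighbouring Sgca and Hils1 over 35 kb (chr11:94935001-94940000 with chr11:94970001-94975000), with 28 and 17 contacts against 7.46 and 3.06 expected. Ass1, an enzyme of arginine synthesis, had its anchors equally close, and its 29 and 16 contacts stood against 8.60 and 2.89. The third loop of 35 kb lay at Map3k10 and Ttc9b, with 25 and 17 contacts against 7.24 and 2.62. The next, of 40 kb, lay at A630073D07Rik, and had 27 and 25 contacts against 4.21 and 6.28. Tut4, which adds uridines to RNA, and Prpf38a, a splicing gene, shared another of 40 kb, with 24 contacts in a 5 kb bin against 6.65 and 53 in a 10 kb bin against 20.1.

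How near each PMSG-only loop lay to a call in the hCG lists was measured as the larger of the 2 anchor distances. The median was 100 kb (quartiles 50 and 197.5 kb). It was 90 kb for hCG-only loops measured against the PMSG lists. A call within 25 kb, just past the 20 kb limit, was found for 30 of the 294 loops (10.2%), and 27 of these 30 had a call in 25 kb bins. Beyond 200 kb lay 67 of the PMSG-only loops (22.8%), against 74 (17.0%) of the hCG-only loops, and beyond 500 kb lay 19 against 11. The 5 nearest, all at 22.5 kb, were the loops of Tm2d3, of Akr1c18 with Akr1c12, of Myl12b, of Clic6, and of Nmb with Wdr73 and Zscan2. The 5 farthest were those of Nxph1 (2447.5 kb), Htr1a (1540 kb), Ybx3 (1537.5 kb), Pdlim1 (1357.5 kb), and Cyb5r2 with Ppfibp2 (1280 kb). Pdlim1, a cytoskeletal adaptor gene, had 14 and 17 contacts against 1.09 and 2.64 expected. Ybx3, which binds RNA and DNA, had anchors only 60 kb apart and 34 and 36 contacts where 11.9 and 10.5 were expected, and the loop of Cyb5r2 with Ppfibp2 spanned 80 kb.

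**Figure D3:**
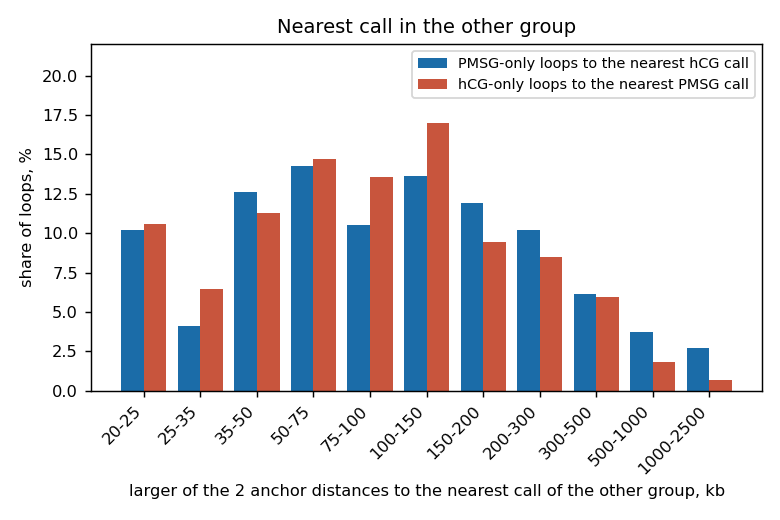
Share of loops (y axis, %) by the larger of the 2 anchor distances to the nearest call of the other group (x axis, kb, bins of unequal width), for PMSG-only loops left of hCG-only loops. The medians were 100 and 90 kb, and 10.2% and 10.6% of the loops lay within 25 kb.

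Many PMSG-only loops used anchors that also had calls in the hCG lists, with a partner more than 20 kb from that of the PMSG-only loop. Such a partner could still be near. A call within 50 kb at both anchors was found in an hCG list for 79 of the 294 loops (26.9%). For hCG-only loops and the PMSG lists this held for 123 (28.3%). Both anchors had a call within 20 kb in both hCG lists for 68 of the 294 loops (23.1%), and for 151 loops this held for 1 anchor. No anchor had a call in either hCG list for 41 loops (13.9%). Measured the other way, 49 of the 435 hCG-only loops (11.3%) had both anchors in use in both PMSG lists, 246 had 1 such anchor, and 61 (14.0%) had none in either list. A shorter loop that shared an anchor was present in both hCG lists for 116 PMSG-only loops (39.5%), and a longer one for 105 (35.7%). For hCG-only loops the order was turned, with a shorter loop in both PMSG lists for 91 (20.9%) and a longer one for 187 (43.0%). These shares go with the longer span of the PMSG-only loops than of the hCG-only loops, and the part of span was not tested. Inhba shows the case of a busy anchor. It encodes the activin βA chain, and its loop of 305 kb had 18 and 14 contacts against 2.99 and 2.22 expected, while 4 calls in each hCG list lay at the same Inhba anchor and 0 at the far one. The anchor of Pdgfra, the receptor of platelet-derived growth factor on stromal cells, likewise held 4 and 6 hCG calls, and its PMSG-only loop of 1300 kb had 50 and 37 contacts against 17.5 and 10.2 expected.

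At the level of genes, the 499 genes make up 7.31% of the 6829 genes whose end lay at loops found in 2 or more lists. hCG-only loops held 759 (11.1%) and loops of all 4 lists 3818 (55.9%). These shares belong to the selection, and are given as the background for the gene lists. Of the 499 genes, 178 were also at a loop of all 4 lists, 61 were also at an hCG-only loop, and 286 were at neither. A call at either gene end was present in both hCG lists for 211 genes and in 1 for 87, and 201 had none. The genes were chosen through loops without an hCG call, and the same counts were not taken over all 6829 genes. Nothing is read from them. The start alone lay at the anchor for 136 genes, the stop alone for 162, both for 95, and the strand of 106 was not known. The median length of the genes was 27.4 kb, against 24.0 kb for all 6829. A single gene lay at 160 of the loops, 2 genes at 83, and 3 or more at 51. The gene end lay at an anchor of only 1 PMSG library for some, and 244 of the 294 loops had it in both.

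Several genes had more than 1 PMSG-only loop. Txnrd3, a thioredoxin reductase known from testis, had 3. It met Cfap100, a ciliary gene, over 760 kb with 19 contacts in a 10 kb bin against 3.89 expected and 35 in a 25 kb bin against 6.40. It met Chst13 and Uroc1 over 640 kb with 48 and 19 contacts against 14.0 and 2.61, and a site on its other side over 700 kb with 100 and 56 against 31.9 and 14.5. No call of either hCG list had an end of Txnrd3 at an anchor. Ereg, the epidermal growth factor-like ligand epiregulin that granulosa cells make after the surge, had 2 loops, one on each side. That of 100 kb had 33 and 35 contacts against 11.4 and 10.2 expected, and that of 220 kb had 33 and 110 against 10.8 and 41.5. An end of Ereg lay at the anchor in PMSG replicate 2 only, so both loops were lost when it had to lie there in both PMSG libraries. They were kept in 3 and 4 of 7 other definitions of the set, and Ereg was also at an hCG-only loop. Foxf2, a forkhead gene of mesenchyme, had loops of 750 and 410 kb, with 59 and 48 contacts against 20.8 and 13.7 for the longer and 116 and 23 against 45.1 and 6.75 for the shorter. Matn1, Mef2a, Trib2, Mmadhc, Parp11, Khdc1a, Stfa3, Ifit1, Kat2b and Sgo1 had 2 loops each. Trib2, a pseudokinase gene, had 43 and 23 contacts against 11.1 and 6.53 at 410 kb, and 103 and 78 against 46.9 and 35.3 at 175 kb. Both loops of Matn1, a cartilage matrix protein, lacked a counterpart within 100 kb in the hCG lists.

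Ends of different genes were joined by 77 of the 294 loops (26.2%), against 140 (32.2%) of the hCG-only loops and 751 (30.5%) of the loops of all 4 lists. Known starts lay at both anchors of 25 pairs and at 1 anchor of 33, and 30 of the 77 had a single gene on each side. The pairs had a median span of 180 kb, against 225 kb for the other loops. A 25 kb bin was involved in 55 of the 77 pairs, and a wide anchor takes in more gene ends. The strongest pair was Ccdc69 with Slc36a2, an amino acid transporter gene, over 115 kb with 23 and 15 contacts against 4.36 and 1.98 expected. Adgrg6, an adhesion G protein-coupled receptor gene, met the start of Vta1, a gene of endosomal sorting, with 34 and 32 contacts against 8.39 and 7.35 over 300 kb. Reg4, a secreted lectin gene, met Sec22b and Gm5544 with 38 and 29 contacts against 9.52 and 5.55 over 300 kb. Mmp17, a membrane-anchored metalloproteinase gene, met Mrps17 and Nipsnap2 with 45 and 30 contacts against 12.1 and 6.69 over 120 kb. The splicing factor gene U2af1 met Slc37a1 with 31 and 43 contacts against 6.68 and 12.3 over 330 kb. Plagl1, an imprinted zinc finger gene, met Sf3b5, a splicing factor subunit, with 18 and 36 contacts against 4.03 and 10.5 over 70 kb.

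The remaining pairs among the 20 strongest had smaller ratios between 3.00 and 4.38. They joined Gm4951 with Ndst1 and Cndp1 with Gm17266 on chromosome 18, Spag9 with Gm21885, Efcab5 and Ssh2 with Ankrd13b and Coro6, Crmp1 and Evc with Stk32b, Klf8 with Nbdy, Lypd6b with Mmadhc, and Stfa3 with Polq. A loop of 1500 kb joined 5 histone genes to 6 others of the same cluster on chromosome 13 (chr13:22025001-22050000 with chr13:23525001-23550000), in 25 kb bins with 77 and 43 contacts against 16.0 and 8.69 expected. That loop had the highest number of genes, 11, and an hCG call lay 25 kb from it. Histone genes are near-identical copies, so contacts could be misplaced between them. Other pairs joined members of 1 gene family. Akr1c18, the 20α-hydroxysteroid dehydrogenase that inactivates progesterone, met its neighbour Akr1c12 over 140 kb (chr13:4130001-4140000 with chr13:4270001-4280000), with 38 and 42 contacts against 10.8 and 10.9 and ratios of 3.53 and 3.84. The hCG call nearest to it lay 22.5 kb away. The chemokine genes Cxcl3, Cxcl15 and Pf4 met Cxcl2 over 125 kb, with 80 and 93 contacts against 39.7 and 33.9. The last of these was chosen here after its values were seen. Both ends of a single gene lay at opposite anchors in 7 loops, of which that of Csgalnact1 was the longest at 375 kb.

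Genes that mark granulosa cells of growing follicles were at PMSG-only loops in 4 of 19 cases (21.1%), against 7.31% of all genes at loops, and at hCG-only loops in 5 of 19 (26.3%, against 11.1%). The lists of genes were drawn up with earlier results of these data known, so these counts are no independent evidence. The 4 were Inhba, Inhbb, Gja1 and Nppc. Inhbb, the activin βB chain, met its neighbour Ralb over 50 kb with 59 and 28 contacts against 26.1 and 9.16 expected. Gja1, the gap junction protein connexin 43, had 39 and 74 contacts against 10.9 and 22.3 over 220 kb. Nppc encodes the C-type natriuretic peptide that keeps oocytes in meiotic arrest, and had 21 contacts in a 5 kb bin against 5.30 and 114 in a 25 kb bin against 47.8, over 300 kb. Gja1 and Inhba were at hCG-only loops as well, and Gja1, Inhba and Nppc at loops of all 4 lists.

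Genes of the response to luteinizing hormone were at PMSG-only loops in 3 of 26 cases (11.5%, against 7.31% of all genes at loops). They were at hCG-only loops in 11 of 26 (42.3%, against 11.1%). The 3 at PMSG-only loops were Ereg, the Fos-family gene Fosl2 and the zinc finger factor Klf4. Ereg and Fosl2 were also at hCG-only loops, and Klf4 was also at a loop of all 4 lists. Fosl2 had 40 and 80 contacts against 12 and 31.4 over 390 kb, and Klf4 47 and 49 against 17.3 and 14.0 over 850 kb. Calls at any gene of that list numbered 5.74 and 4.91 per 1000 loops in the hCG libraries and 3.49 and 4.29 in the PMSG libraries. Of the steroid and cholesterol genes, Akr1c18 was the only one of 14 at a PMSG-only loop. Signalling by the TGF-β family had 3 of 31 (9.68%), Bmp2, Inhba and Inhbb, against 8 at hCG-only loops. Bmp2 had 30 and 26 contacts against 7.48 and 5.82 over 180 kb, and its nearest hCG call lay 760 kb away. Signalling by insulin-like growth factors had 3 of 16 (18.8%), which were Igfbp3, the adaptor gene Irs1 and Pappa, a protease of the binding proteins. All 3 were also at loops of all 4 lists, where 13 of the 16 lay, and 3 others of the 16 were at hCG-only loops. Irs1 had 26 and 81 contacts against 8.02 and 28.4 over 500 kb, and Pappa 20 and 44 against 5.42 and 17.5 over 55 kb. Egfr, the epidermal growth factor receptor, had 214 and 144 contacts against 112 and 69.1 over 100 kb, which gave ratios of only 1.92 and 2.09. With Ereg it made 2 of 12 genes of its pathway, and 4 of 12, both of these among them, were at hCG-only loops. Mcm3, a subunit of the replicative helicase, was the only one of 12 cell cycle genes, and met Paqr8 over 60 kb with 22 and 33 contacts against 6.95 and 12, while 3 of 12, Mcm3 among them, were at hCG-only loops.

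Among gene families, the G protein-coupled receptors had 12 of 100 genes at PMSG-only loops, against 7.31% of all genes at loops, and 6 of 100 at hCG-only loops, against 11.1%. The 12 were receptors of serotonin (Htr1a, Htr6), neuropeptide Y (Npy1r, Npy5r), somatostatin (Sstr1, Sstr4) and prokineticin (Prokr2), with Calcrl, Ccr10, Fzd4, Gprc6a and Adgrg6. Npy1r and Npy5r share 1 loop, so the 12 genes lay at 11 loops. Calcrl, the receptor chain for adrenomedullin, had 18 and 38 contacts against 2.65 and 9.69 over 365 kb. Sstr4 shared its loop with Thbd and had 20 and 20 contacts against 5.82 and 4.19 over 270 kb. Over whole lists, calls at genes of this family numbered 13.4 and 12.9 per 1000 loops in the hCG libraries and 14.0 and 13.5 in the PMSG libraries. The lower PMSG value (13.47) and the higher hCG value (13.44) were nearly equal, so these rates do not set the groups apart. Ion channel genes had 7 of 108 (6.48%) at PMSG-only loops, among them Trpc4, the glutamate receptor genes Grin2a and Grid1 and the sodium channel genes Scn11a and Scn4a. Grin2a had 62 and 34 contacts against 16.2 and 8.77 over 975 kb. Solute carriers had 13 of 165 (7.88%), developmental transcription factors 8 of 118 (6.78%) and C2H2 zinc finger genes 10 of 123 (8.13%), which are near the share of all genes. Families were taken by patterns in gene names, and the 10 include Zfp36l2, which is not of the C2H2 type. The 8 developmental factors included Osr1, an early gene of the urogenital ridge, at 650 kb with 31 and 16 contacts against 5.38 and 1.52, and Gata4, a granulosa factor. Osr1 and Gata4 were also at hCG-only loops. Histone genes had 11 of 43, all at the 1 loop described above, and 21 of 43 (48.8%) at hCG-only loops, the same 11 among them. Cadherins and protocadherins had 0 of 33.

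The other families lay near the background or below it, with counts too small to rank. Collagen, laminin and matrix protease genes had 5 of 58 (8.62%), the strongest being Col1a1 and Mmp17. WNT pathway genes had 3 of 30, which were the receptor Fzd4, the secreted inhibitor Sfrp4 and β-catenin, Ctnnb1. Guidance genes had 3 of 29 (10.3%), which were Epha4, Unc5b and Dcc. Cytokine and chemokine genes had 7 of 82 (8.54%) and ribosomal protein genes 4 of 67 (5.97%). Genes of RNA helicases, splicing and translation initiation had 7 of 95 (7.37%), with Taf12, a gene of transcription initiation, taken in by the name pattern. Nuclear receptors had 1 of 18 (Thrb), and olfactory and vomeronasal receptors 1 of 48 (Olfr15).

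**Figure D4:**
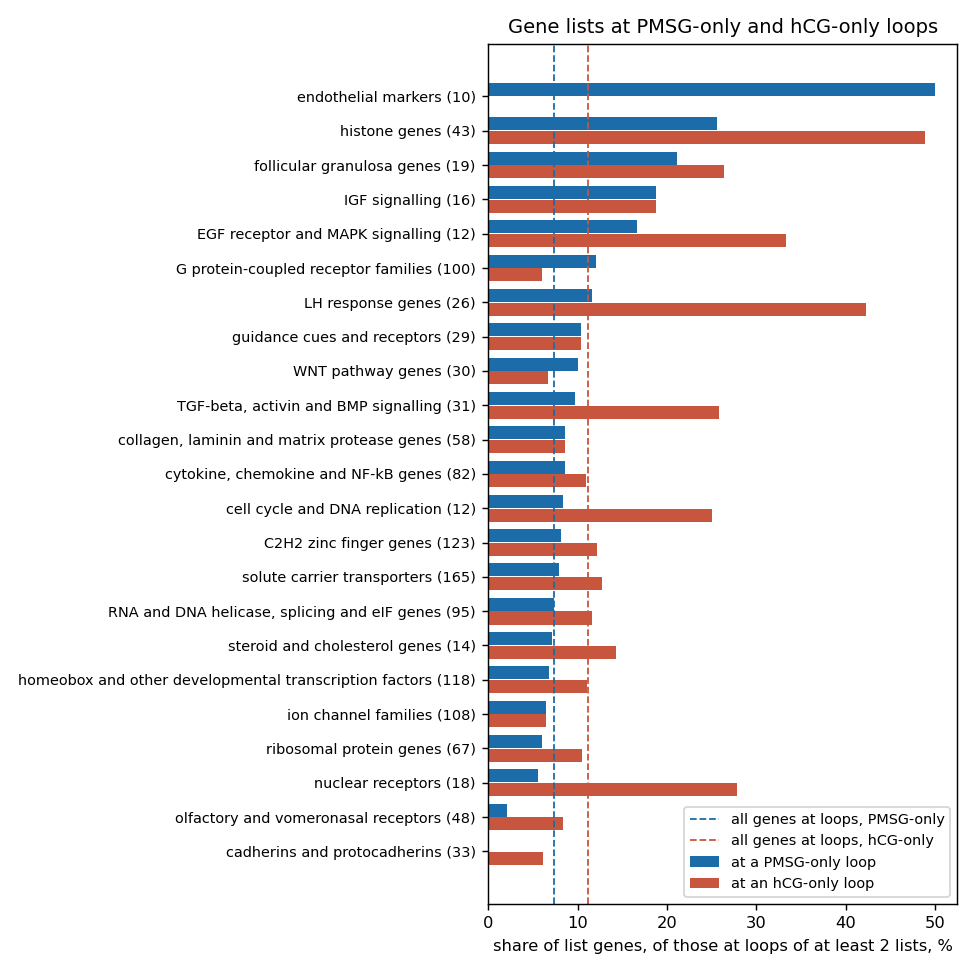
Share of the genes of each list (x axis, %) with an end at a PMSG-only loop (upper bar) or an hCG-only loop (lower bar), out of the list's genes at loops of at least 2 lists (number in brackets, lists of 10 or more). Dashed lines are the shares of all 6829 genes, 7.31% and 11.1%. Endothelial markers (5 of 10) reach farthest right at PMSG-only loops, and G protein-coupled receptors have 12 of 100 genes at PMSG-only loops and 6 at hCG-only loops.

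Markers of other ovarian cells were counted in the same way. Over all genes at loops, 7.31% were at PMSG-only and 11.1% at hCG-only loops. The marker lists have few genes at loops, so a count of 0 carries little. Of the endothelial markers, 5 of the 10 found at loops were at PMSG-only loops and 0 of 10 at hCG-only loops. The endothelial list was written with these loops known, so its count is no independent evidence. The 5 were Flt4, the receptor of lymphatic growth factors, Thbd, Cd34, Icam2 and Calcrl. Flt4 had 65 and 41 contacts against 28.8 and 12.9 over 50 kb, and Cd34 25 and 197 against 4.94 and 65.2 over 125 kb. Calls at any of the endothelial markers numbered 0.391 and 0.882 per 1000 loops in the hCG libraries and 1.57 and 0.918 in the PMSG libraries. Cd34, Cdh5 and Plvap were at loops of all 4 lists, and Pecam1, Kdr, Tek and Tie1 had no end at loops found in 2 or more lists. Of the theca, stroma and smooth muscle markers 3 of 8 were at PMSG-only loops (Acta2, Col1a1, Pdgfra) and 2 at hCG-only loops (Nr2f2, Pdgfra). Col1a1 and Pdgfra were also at loops of all 4 lists. Of the leukocyte markers 2 of 4 were at PMSG-only loops (Blk, Lyz2) and 1, Blk again, at an hCG-only loop. Blk was also at a loop of all 4 lists. Calls at any leukocyte marker numbered 0.783 and 0.378 per 1000 loops in the hCG libraries and 0.120 and 0.459 in the PMSG libraries. No oocyte marker of 6 was at a PMSG-only or an hCG-only loop. The part of other cells in the PMSG-only loops was not tested.

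Whether genes of PMSG-only loops also had weaker loops elsewhere after hCG was asked of loops that the selection did not use. At 435 pixels called in the same bins in all 4 libraries, observed contacts were compared with the donut expectation as offset (edgeR's quasi-likelihood test, Benjamini-Hochberg adjustment). A loop that lost its call after hCG could not be among these pixels, so the test covers only loops that kept a call. None of the 435 passed an adjusted p of 0.05 (0.00%), and the smallest adjusted p was 0.331. At an unadjusted p under 0.05 there were 29 of 435, and DESeq2 called 0, with 1 at an unadjusted p under 0.05. Of the 18 pixels at genes of PMSG-only loops, 0 passed, also at an unadjusted p under 0.05. Their median log2 difference, hCG over PMSG, was 0.11, against 0.12 over all 435, and 10 of the 18 were higher in hCG. With TMM normalization and no local expectation the medians were -0.10 and 0.01, and 6 of the 18 were higher in hCG. Tm2d3, a transmembrane protein gene, had the lowest value, with 29 and 29 contacts in the hCG libraries against 51 and 41 in the PMSG libraries at a loop of 350 kb. Its ratio to the expectation averaged 4.09 ± 0.195 in hCG and 6.21 ± 1.80 in PMSG (SD, n = 2 each), a log2 difference of -0.52 with a standard error of 0.25 and an adjusted p of 0.747 in edgeR. Klf4 had 38 and 52 contacts in hCG and 68 and 45 in PMSG at a loop of 1175 kb, and its log2 difference was -0.18 ± 0.17 (standard error, adjusted p of 0.915 in edgeR). Akr1c12 had 17 and 28 contacts in hCG and 19 and 27 in PMSG at a shared loop of 270 kb, with a log2 difference of 0.23 ± 0.27 (standard error, adjusted p of 0.931 in edgeR). The opioid precursor gene Penk, whose PMSG-only loop of 160 kb had 27 and 23 contacts against 5.84 and 4.56, differed by 0.18 ± 0.24 at its shared loop (adjusted p of 0.952 in edgeR). In counts simulated with 60 of the 435 pixels changed by 1 on the log2 scale, 78.3% were recovered, and smaller changes were not simulated. The simulation gave every pixel the common dispersion of the fit (0.0043) and had no calling step. It therefore does not give the recovery for real pixels, which had to keep a call in all 4 lists.

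**Figure D5:**
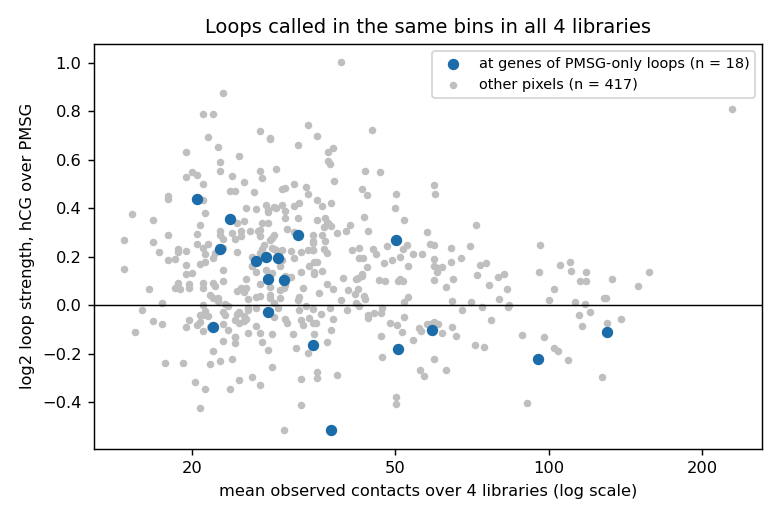
Log2 difference in loop strength, hCG over PMSG (y axis), against mean observed contacts (x axis, log scale) at the 435 pixels called in the same bins in all 4 libraries. The 18 pixels at genes of PMSG-only loops (large points) lie between -0.52 and 0.44, among the other pixels (small points), and 0 passed the test.

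Limits of distance defined the set. Just inside the 2.5 kb limit to a gene end were Zpld1 (2025 bp), Klf4 (2137 bp) and Pappa (2492 bp), with smaller ratios of 4.09, 2.72 and 2.52. Just outside were PMSG-only loops near Olfr875 (2637 bp), Cfap36 (2684 bp) and Esr2 (2742 bp), with smaller ratios of 4.72, 2.28 and 3.53. Esr2 encodes the estrogen receptor of granulosa cells, and its loop of 175 kb had 60 and 16 contacts against 17.0 and 1.59 expected. An end of Esr2 was also at an hCG-only loop. Across the 20 kb limit, 498 loops at gene ends were in both PMSG lists and 1 hCG list, and the nearest hCG call of 23 of these lay 15 to 20 kb away. The set also changed with its definition and with each library. It held 497 and 582 loops when hCG replicate 1 or 2 was not required to lack the loop, and 770 and 1316 when a call in PMSG replicate 1 or 2 was not required. Of the 294 loops, 65 were kept under each of 7 other definitions of matching, list and gene end, and they held 100 of the 499 genes. Among the 20 strongest these were the loops of Npy1r with Npy5r, Htr1a, Epha4, Igfbp3, Osr1, Eif3f with Nlrp10, Skor1, Trpc4, and Inpp5a with Nkx6-2. The loops of Penk, Col1a1 with Sgca and Hils1, Pdgfra, Nppc and Grin2a were kept as well, although those of Pdgfra, Nppc and Grin2a had a call in 25 kb bins in at least 1 PMSG library. The loop of Gdap1 was lost with lists limited to FDR values of 0.01 or less, and those of Nxph1 and Pdlim1 when the gene end had to lie at the anchor in both PMSG libraries. The Inhba loop was lost with overlapping anchors, with a 50 kb match distance and with the gene end required in both PMSG libraries, and the histone loop with matching within 50 kb. Of the 12 G protein-coupled receptor genes 5 were at loops kept in all 7 settings, and of the 5 endothelial markers 0. At loops with no call in 25 kb bins were 7 of the 12 and 4 of the 5 (Calcrl, Flt4, Icam2 and Thbd).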

How the data were processed

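Micro-C libraries of granulosa cells, with 2 to 3 technical replicates per sample per the labels, gave 1 deposited loop list for each of 2 hCG and 2 PMSG samples. The eCG time before collection is 46 h in the sample characteristics and 44 h in the treatment protocol. BWA, Juicer and the build mm10 are named in the submitters' processing notes, and juicer_tools 1.22.01 in the file headers. The loop caller's settings were not given in the sources used here. Per the file headers, each loop carries its observed contact count as a whole number, expected contacts (a signal) from 4 neighbourhoods, and an FDR (q-value) for each, all below 0.1. A score in the deposited lists, which counts collapsed pixels, was not used. Bins were 5, 10 or 25 kb.

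Loops were matched within 20 kb, and genes were 21631 RefSeq protein-coding genes (GRCm38.p6, chromosomes 1 to 19 and X) with an end within 2.5 kb. The members and the 26 gene lists were chosen with earlier results of these data known. The named genes are those of the 20 strongest loops, genes of lists, the 20 strongest pairs, genes with 2 or more loops, the 5 longest, shortest, nearest and farthest loops, and loops at the 2.5 kb limit. Up to 5 genes a family list were named by strength, and all where a list's count is given by name. Promoter sequences were limited, after that rule, to those lying at the anchor. Loop strength was fitted with edgeR 4.0.16 and DESeq2 1.42.0 in R 4.3.3, tested on simulated data. Python 3.11.15 did the rest. The p-values measure only the spread between these samples, which may be technical. Contacts can include PCR copies. One pair among the named genes is not reported here.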

Additional observations from a re-analysis of the deposited data

How the results depend on the processing

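The number of PMSG-only loops at gene ends, 294, stayed between 244 and 405 under the planned settings of matching, list and gene end. It was 183 when calls in 25 kb bins were left out, a setting chosen after seeing the data. Only 110 of the 294 had a finest call in bins below 25 kb in both PMSG libraries. The 183 therefore cannot all be among the 294, and their overlap is not given here. Without calls in 25 kb bins, the genes numbered 272 in place of 499 and the gene pairs 40 in place of 77. Pairs numbered 119 with gene ends within 10 kb and 45 with the gene end at the anchor in both PMSG libraries. The median span of 225 kb was the same by the calls of either PMSG library. It was 200 kb in 3 settings (overlapping anchors, FDR values of 0.01 or less, and matching within 10 kb), 215 kb with lists of equal length, 230 kb with the gene end in both PMSG libraries, 250 kb with matching within 50 kb and 150 kb without 25 kb bins. Leaving out 1 library removes 1 of the conditions of the choice, so counts grew by construction. Without each replicate in turn, loops numbered 497 (hCG replicate 1), 582 (hCG replicate 2), 770 (PMSG replicate 1) and 1316 (PMSG replicate 2), genes 848 to 2174 and pairs 133 to 412, with median spans of 197.5 to 225 kb.

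At the 435 shared pixels, 0 were called in every setting with all 4 libraries, and 0 to 2 without 1 library (1 without hCG replicate 1, 1 without hCG replicate 2, 2 without PMSG replicate 2 and 0 without PMSG replicate 1). With the replicate number as a block, 0 were called and 17 had an unadjusted p under 0.05. The deviations of same-numbered libraries correlated at -0.02 over these pixels. Ratios to the local expectation cannot show an effect common to a whole library, so a shared preparation was not tested. The median log2 difference of the 18 pixels was -0.10 with TMM normalization and no local expectation, and ranged from -0.05 to 0.10 without 1 library.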
